A study of Rattus norvegicus with 6 samples.

Results

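The 34 genes described here encode the constitutive proteasome, the protease that degrades proteins tagged with ubiquitin in every cell. They were chosen by name: a gene entered if a probe's RefSeq accession led to a rat symbol beginning with Psma, Psmb, Psmc or Psmd followed by a number. Psmb8, Psmb9 and Psmb10, which belong to the immunoproteasome, were set apart. The rule covers 36 rat symbols, of which Psmb11 and Psmd11 had no matched probe and are not analysed here. The 34 genes carried 37 probes, among 15168 named genes with 18005 probes on the array. The rule itself used no measured value, but the list was chosen with earlier results of these data known.

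The samples were primary Leydig cells of Sprague-Dawley rats, the androgen-producing cells between the seminiferous tubules. All cells were kept in F12/DMEM with 10% fetal bovine serum at 34 °C and 5% CO2. In 3 samples exosomes from primary rat Sertoli cells were added at 5 µg/ml for 24 h, and 3 samples received none. The labels do not say whether the replicates of a group were separate animals or cultures, and the spread behind each p-value may therefore be technical. Of 8 Leydig cell markers, Star, Cyp11a1, Hsd3b1 and Insl3 were well above background on all 6 arrays, Cyp17a1 on 5 and Hsd17b3 on 1, while the receptor gene Lhcgr and the regulator gene Nr5a1 were so on 0 arrays.

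The proteasome consists of a barrel-shaped core and a regulatory cap. In the core, rings of alpha subunits (Psma genes) form the gate, and rings of beta subunits (Psmb genes) enclose the proteolytic sites. The cap holds a ring of ATPases (Psmc genes) that unfolds substrates and threads them into the core, scaffold and ubiquitin-binding subunits at its base, and a lid that removes ubiquitin. The ATPases assemble through pairs, Psmc2 with Psmc1, Psmc5 with Psmc4, and Psmc6 with Psmc3, held by dedicated chaperones that include Psmd5, Psmd10 and Psmd9. Transcription of the subunit genes is known to rise together when proteasome activity is blocked. In steroid-making cells, as elsewhere, the complex turns over regulatory and damaged proteins.

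Values are log2 processed signals after subtraction of each array's 75th percentile, so that 0 is that percentile, and a change is the exosome mean minus the untreated mean with its standard error (SE). Signals of different probes are not comparable as amounts of RNA. A gene passed the test at an adjusted p below 0.05 in limma, fitted over 20435 probes. In these bulk samples a lower share of a cell type and less RNA per cell cannot be told apart. Between 67.2% and 75.6% of gene spots per array were well above background. The untreated arrays share 1 scan number, which no exosome array has, so scan and treatment cannot be told apart. All 34 genes had a probe well above background on every array, and no member spot was saturated.

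With exosomes, 5 of the 34 genes rose, 8 fell and 21 did not pass the test. The genes that rose were Psmc2, Psmc5, Psmc6, Psmd1 and Psmd9. Those that fell were Psmb3, Psmb7, Psmc3, Psmc4, Psmd3, Psmd5, Psmd8 and Psmd13. The changes thus ran in both directions, and within the ATPase ring 3 genes rose and 2 fell. The shares of 14.7% higher and 23.5% lower stood beside 14.6% higher and 29.2% lower among all 10981 tested genes. Under this scaling the counts of the proteasome genes were thus close to the background. The 3 exosome values lay above all 3 untreated values in 8 genes and below them in 13, against 24.1% and 37.9% of all genes. The median change was -0.12 for the proteasome genes and -0.19 for all genes.

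The calls depended on which arrays entered the fit. The number of higher genes was 3 without untreated array 1, 0 without untreated array 2, 1 without untreated array 3, 1 without exosome array 1 and 2 without exosome array 3. The number of lower genes was 1 without untreated array 2, 1 without untreated array 3, 1 without exosome array 1 and 4 without exosome array 3. Without exosome array 2 there were 7 higher and 8 lower. Counts over all 10981 tested genes changed as well, from 1598 higher and 3209 lower with all arrays. Without untreated arrays 1, 2 and 3 the higher counts were 1566, 134 and 211, and the lower counts 3283, 820 and 998. Without exosome arrays 1, 2 and 3 the higher counts were 377, 1725 and 767, and the lower counts 1406, 3295 and 2381. The 13 proteasome genes kept their direction in all 6 of these fits. Psmb7 passed the test in each of the 6, Psmc6 in the 5 that held untreated array 2, and the other 11 genes in fewer. Under quantile normalization, which set the median change of all genes to 0.01, 20.2% of genes were higher and 16.1% lower. Of the 34 proteasome genes 4 were higher and 8 lower. Lower calls thus outnumbered higher calls among the proteasome genes, and the reverse held among all genes. This difference was not tested.

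**Figure D1:**
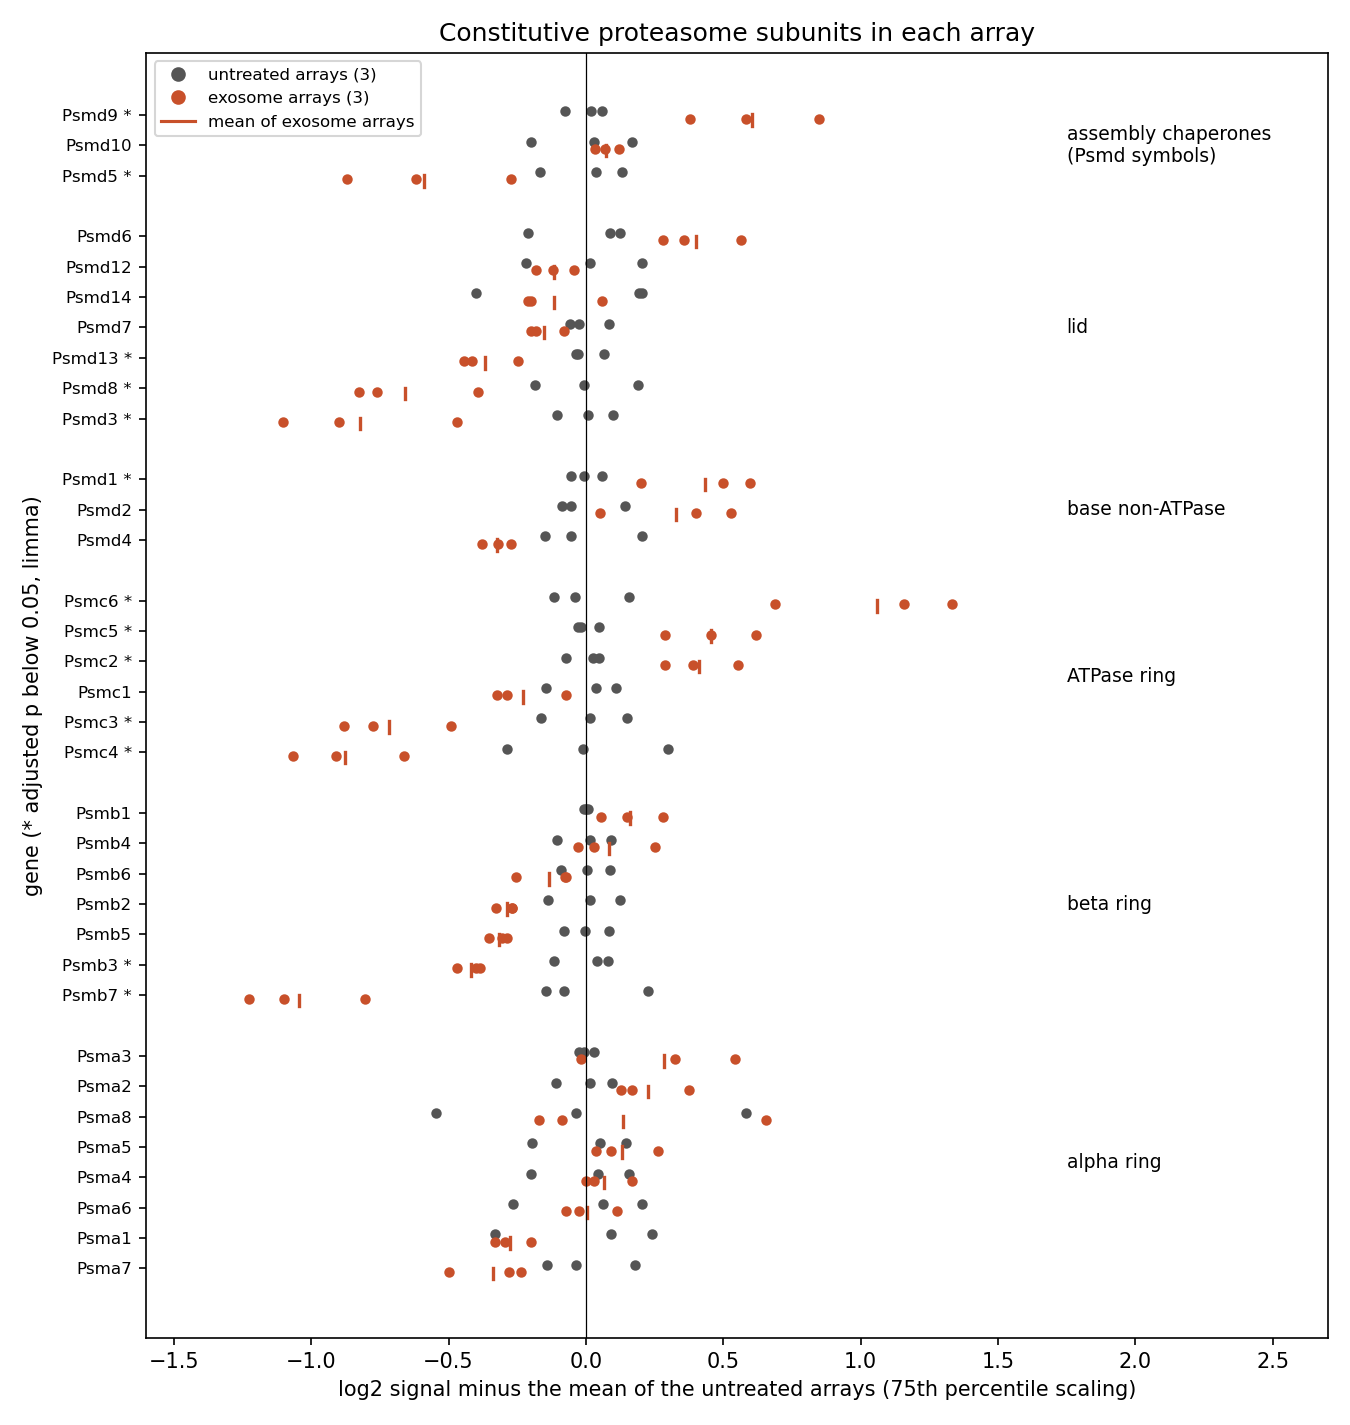
Scaled log2 signal of each proteasome gene in every array, relative to the mean of its 3 untreated arrays, with genes ordered by subunit group on the vertical axis. Grey points are untreated arrays, orange points exosome arrays, the orange bar is the exosome mean, and an asterisk marks an adjusted p below 0.05. The exosome means of the 8 alpha ring genes lie between -0.34 and 0.28, with wide scatter of the dim Psma8, and the ATPase ring spreads from a change of -0.88 for Psmc4 to 1.06 for Psmc6.

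None of the 8 alpha ring genes passed the test in limma, beside 4807 of all 10981 tested genes. At an unadjusted p below 0.05 only Psma7 was lower and 0 were higher. In alternative fits Psma2 passed under median centring, Psma7 under normexp, Psma1 without untreated array 1, Psma3 without exosome array 2, and these 4 with array weights. Their changes ran from -0.34 for Psma7 to 0.28 for Psma3. Psma7 read 3.79, 3.90 and 4.11 in the untreated arrays and 3.43, 3.65 and 3.70 in the exosome arrays, a change of -0.34 with an SE of 0.14 (adjusted p = 0.0912, limma). All its exosome values were below its untreated values, though by little. Psma6 had the smallest change of the ring, 0.00 with an SE of 0.15. Its untreated values of 4.19, 4.52 and 4.66 enclosed its exosome values of 4.38, 4.43 and 4.57. In 6 of the 8 genes the groups overlapped. Psma3 did not pass (0.28, SE 0.16, adjusted p = 0.195), and its exosome values of 0.72, 0.38 and 0.94 differed more from each other than its untreated values of 0.37, 0.39 and 0.42.

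Psma8 is the germ cell form of an alpha subunit, which takes the place of Psma7 in spermatocytes. Its tested probe was dim, with intensities of 18.1, 35.2 and 22.2 in the untreated arrays and 47.8, 28.5 and 24.5 in the exosome arrays. On the scaled log2 scale these were -5.59, -4.47 and -5.08 against -4.39, -5.22 and -5.13. The groups overlapped widely, and the change of 0.13 was smaller than its SE of 0.34. Its other 2 probes were well above background on 1 and 0 arrays and were not tested.

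In the beta ring, Psmb7 and Psmb3 fell, and 5 of 7 genes did not pass the test. Lower genes made up 28.6% of the ring, beside 29.2% of all genes. Psmb7 encodes the subunit with trypsin-like activity. Its values were 0.81, 0.88 and 1.18 without exosomes and -0.14, 0.15 and -0.27 with them. It fell by 1.04 on the log2 scale (SE 0.17, adjusted p = 0.0105, limma), or 2.06-fold. The lowest untreated value stood well above the highest exosome value, so the groups did not overlap. In the authors' deposited log2 values the gene read 10.62, 10.72 and 11.03 against 9.72, 10.01 and 9.57, in the same order of groups.

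The other catalytic subunits showed smaller differences. Psmb5, which carries the chymotrypsin-like activity, read 2.80, 2.88 and 2.97 in untreated and 2.53, 2.59 and 2.58 in exosome arrays, without overlap. Its change of -0.32 (SE 0.11, adjusted p = 0.0559, limma) did not pass, but under quantile normalization it was -0.34 and passed (adjusted p = 0.0494). Psmb6, with caspase-like activity, read 1.52, 1.61 and 1.70 against 1.35, 1.53 and 1.54. These groups overlapped, and the change of -0.14 had an SE of 0.12 (adjusted p = 0.382, limma). Under median centring its change was 0.08. Whether Psmb7 differed from Psmb5 and Psmb6 in its change was not tested.

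Psmb3 is a structural subunit without a proteolytic site. It fell by 0.42 (SE 0.11, adjusted p = 0.0279, limma) from 2.65, 2.81 and 2.85 to 2.30, 2.37 and 2.38. The groups did not overlap. Under median centring the change was -0.20 and did not pass. Psmb4, another structural subunit, had the smallest change of the ring, 0.08 with an SE of 0.13. Its values of 4.93, 5.05 and 5.13 in untreated arrays overlapped with 5.07, 5.01 and 5.29 in exosome arrays. Psmb1 (0.16, SE 0.11) and Psmb2 (-0.29, SE 0.12) did not pass either.

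In the ATPase ring 5 of 6 genes passed the test, of which 3 rose and 2 fell. Higher genes made up 50% of the ring and lower genes 33.3%, beside 14.6% and 29.2% of all genes. Whether the ring differed from other genes was not tested. Psmc6 had low signals, with intensities of 210, 163 and 150 in untreated arrays and 547, 369 and 414 in exosome arrays. On the scaled log2 scale it rose from -2.05, -2.25 and -2.33 to -0.88, -1.52 and -1.05, a change of 1.06 (SE 0.19, adjusted p = 0.0118, limma) or 2.09-fold. Its partner Psmc3 fell from 2.13, 2.31 and 2.44 to 1.52, 1.80 and 1.41, a change of -0.72 (SE 0.15, adjusted p = 0.0155, limma). Neither gene's groups overlapped. The difference between them within an array, which subtracting a constant from each array leaves as it is, went from -4.50 ± 0.30 (SD, n = 3) to -2.73 ± 0.52 (SD, n = 3), a shift of 1.78.

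Psmc5 rose from 3.59, 3.53 and 3.52 to 4.0, 3.84 and 4.17 (change 0.45, SE 0.13, adjusted p = 0.0304, limma). Its partner Psmc4 fell from 1.13, 1.41 and 1.72 to 0.51, 0.76 and 0.35 (change -0.88, SE 0.19, adjusted p = 0.0158, limma). Both genes separated the groups without overlap, and their difference within an array went from 2.13 ± 0.33 (SD, n = 3) to 3.46 ± 0.37 (SD, n = 3). Psmc2 rose from 3.79, 3.77 and 3.67 to 4.13, 4.03 and 4.29 (change 0.41, SE 0.12, adjusted p = 0.0356, limma). Its partner Psmc1, the member of the ring with the smallest change, read 2.48, 2.30 and 2.55 against 2.16, 2.37 and 2.12. These groups overlapped, and the change of -0.23 had an SE of 0.13 (adjusted p = 0.199, limma). The difference between Psmc2 and Psmc1 went from 1.30 ± 0.18 (SD, n = 3) to 1.94 ± 0.26 (SD, n = 3). The 3 within-array differences restate the changes of the single genes, whose order within a pair was set with these changes known, and they were given no test.

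**Figure D2:**
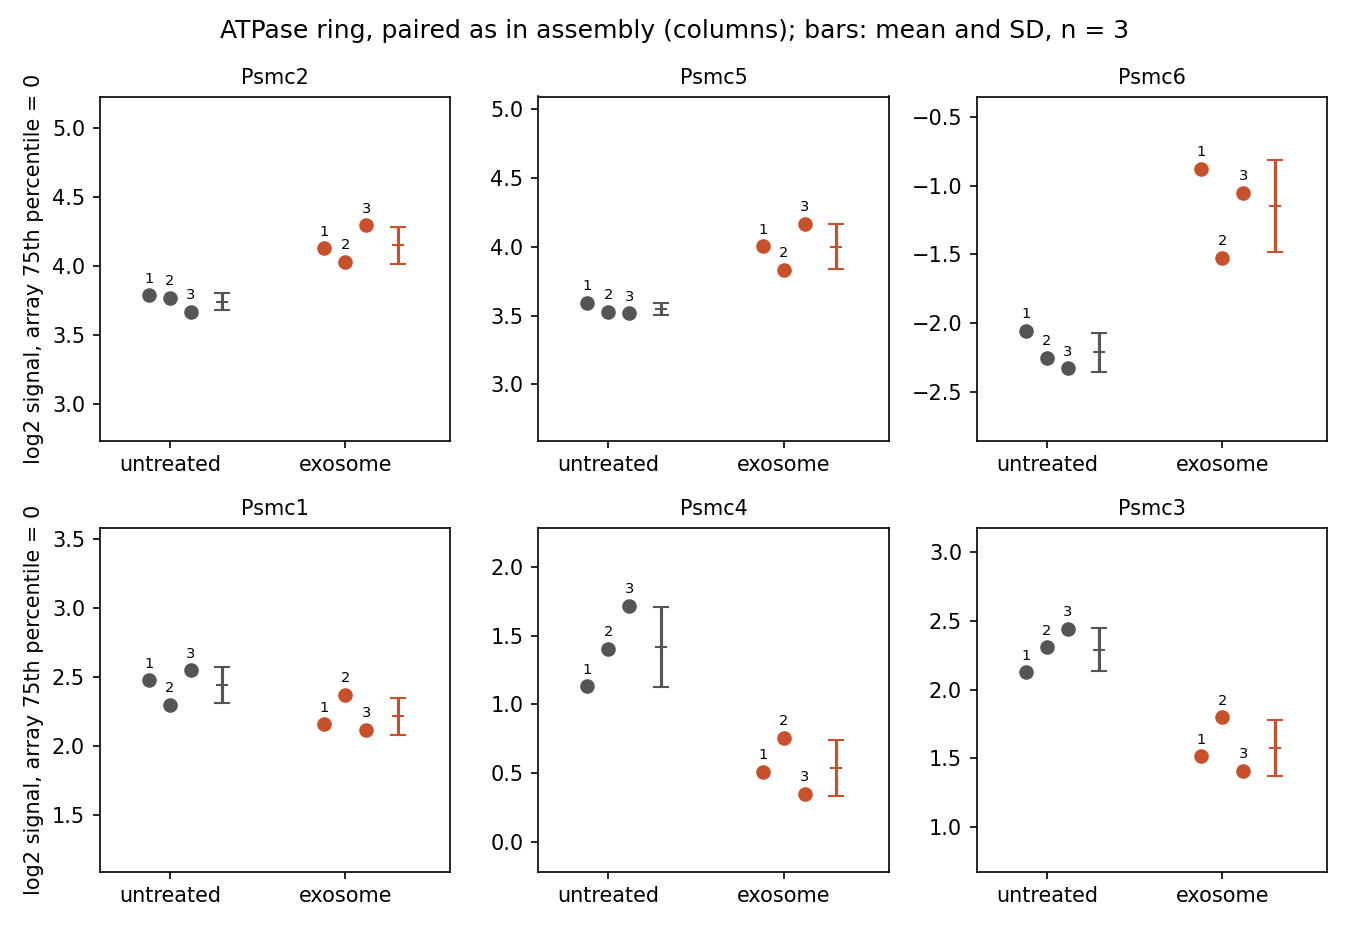
Scaled log2 signal of the 6 ATPase ring genes in untreated (grey) and exosome (orange) arrays, with replicate numbers beside the points and bars for the mean and SD of 3 arrays; each column holds an assembly pair, and every panel spans the same log2 range. The upper genes Psmc2, Psmc5 and Psmc6 are higher with exosomes, Psmc4 and Psmc3 are lower, and the groups of Psmc1 overlap.

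The sequences upstream of 4 genes are shown because these genes moved in opposite directions: Psmb7 and Psmc3 fell, and Psmc6 and Psmc2 rose. Proteasome genes are known to be driven together by the factors encoded by Nfe2l1 and Nfe2l2, which bind antioxidant response elements with small Maf proteins, and many carry CCAAT boxes. The letters searched were TGANNNNGC, a loose form of the core of such an element that allows any base at each N, and CCAAT. Both strands were searched, in the window from 250 bases before to 50 bases after each RefSeq start of assembly GRCr8. The printed stretches are the 250 bases before the start, 5′ to 3′ on the gene's strand, with matches in capitals. They lie at chr3:42827471-42827720 (minus strand) for Psmb7, chr3:97487393-97487642 (plus strand) for Psmc3, chr15:21022064-21022313 (plus strand) for Psmc6 and chr4:14162391-14162640 (minus strand) for Psmc2.
Psmb7: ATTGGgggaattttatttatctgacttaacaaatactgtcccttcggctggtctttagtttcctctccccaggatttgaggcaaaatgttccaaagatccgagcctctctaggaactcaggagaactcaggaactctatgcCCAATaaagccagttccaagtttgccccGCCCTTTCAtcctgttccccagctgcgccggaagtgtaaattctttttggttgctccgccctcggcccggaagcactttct
Psmc3: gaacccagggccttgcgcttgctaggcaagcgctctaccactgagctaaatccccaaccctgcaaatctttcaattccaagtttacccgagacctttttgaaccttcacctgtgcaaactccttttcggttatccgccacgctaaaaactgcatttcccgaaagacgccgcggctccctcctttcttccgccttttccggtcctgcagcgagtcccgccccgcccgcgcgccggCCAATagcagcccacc
Psmc6: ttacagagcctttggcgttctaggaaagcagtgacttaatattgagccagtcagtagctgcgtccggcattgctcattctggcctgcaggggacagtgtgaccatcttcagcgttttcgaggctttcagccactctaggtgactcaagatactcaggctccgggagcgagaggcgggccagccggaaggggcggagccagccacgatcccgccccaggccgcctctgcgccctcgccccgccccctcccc
Psmc2: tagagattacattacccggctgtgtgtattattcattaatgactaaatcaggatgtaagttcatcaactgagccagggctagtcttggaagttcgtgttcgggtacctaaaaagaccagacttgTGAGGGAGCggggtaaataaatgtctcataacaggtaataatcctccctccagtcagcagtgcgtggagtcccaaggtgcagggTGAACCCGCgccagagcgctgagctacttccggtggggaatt
In Psmb7 a TGANNNNGC match began 81 bases before the start, read on the opposite strand. CCAAT matched at 109 and, on the opposite strand, at 250 bases before the start. Psmc2 held TGANNNNGC at 126 and 42 bases before the start, Psmc3 held CCAAT at 16 bases, and Psmc6 held neither. Of the 34 genes 30 had a promoter in the RefSeq table. TGANNNNGC occurred in 18 of these 30 (60%) and in 40.5% of all 33469 promoters, and CCAAT in 16 (53.3%) and in 37.5%. Among genes with a promoter, TGANNNNGC was present in 3 of 5 that rose, 6 of 8 that fell and 9 of 17 that did not pass the test. It thus occurred on genes of either direction. CCAAT was present in 1 of 5 that rose, 4 of 8 that fell and 11 of 17 others. The 2 motifs can share bases, and a match describes letters only.

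Of the base subunits outside the ATPase ring, Psmd1 rose. Psmd1 and Psmd2 encode the large scaffold subunits to which ubiquitin-binding proteins dock. Its values went from 1.92, 1.81 and 1.86 to 2.46, 2.06 and 2.36 (change 0.43, SE 0.14, adjusted p = 0.0463, limma). The groups did not overlap, but the adjusted p was 0.0585 under quantile normalization. Psmd4, a ubiquitin receptor, had the smallest change of these 3 genes, -0.32 with an SE of 0.13 (adjusted p = 0.0888, limma). It read 2.92, 3.01 and 3.27 in untreated and 2.69, 2.74 and 2.79 in exosome arrays, without overlap. Psmd2, the other scaffold, read 3.88, 3.68 and 3.65 against 4.14, 3.79 and 4.27, with overlap (change 0.33, SE 0.16).

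In the lid, Psmd3, Psmd8 and Psmd13 fell and 4 of 7 genes did not pass. These 3 are structural subunits of the lid. Lower genes made up 42.9% of the lid, beside 29.2% of all genes. Psmd3 had the largest change, from -0.95, -0.84 and -0.75 to -1.75, -1.31 and -1.95 (change -0.82, SE 0.18, adjusted p = 0.017, limma). Psmd8 fell from 2.38, 2.55 and 2.75 to 1.80, 2.17 and 1.73 (change -0.66, SE 0.17, adjusted p = 0.0238, limma). Psmd13 fell from 0.36, 0.47 and 0.37 to -0.04, 0.15 and -0.01 (change -0.37, SE 0.11, adjusted p = 0.0414, limma). None of the 3 overlapped between groups, and under median centring Psmd8 and Psmd13 no longer passed.

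Psmd6 was the lid gene with a positive change, 0.40 with an SE of 0.15 (adjusted p = 0.0663, limma). Psmd12 had the smallest change, -0.11 with an SE of 0.14. It read 2.04, 2.27 and 2.46 in untreated arrays and 2.08, 2.14 and 2.21 in exosome arrays, within the untreated range. Psmd14, the deubiquitinase of the lid, read -1.20, -0.60 and -0.59 against -1.01, -0.74 and -0.997. These groups overlapped (change -0.12, SE 0.20). The changes of Psmd7, Psmd12 and Psmd14 were 0.06, 0.10 and 0.10 under median centring, so their sign depended on the scaling.

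The chaperones with a Psmd symbol help to assemble the ATPase pairs and leave the finished complex. Psmd5, the chaperone of Psmc2 and Psmc1, fell from 0.68, 0.89 and 0.98 to -0.02, 0.58 and 0.23 (change -0.59, SE 0.18, adjusted p = 0.041, limma). The groups did not overlap, and the adjusted p was 0.0505 under quantile normalization. Psmd10, or gankyrin, a chaperone of Psmc5 and Psmc4, read -0.06, 0.17 and 0.30 in untreated and 0.20, 0.17 and 0.25 in exosome arrays, with overlap (change 0.07, SE 0.13).

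Psmd9, the chaperone of Psmc6 and Psmc3, was measured by 2 probes listed under the same RefSeq transcript, and they moved in opposite directions. The brighter probe, which stands for the gene in all counts, went from 1.71, 1.67 and 1.58 to 2.24, 2.03 and 2.50 (change 0.60, SE 0.15, adjusted p = 0.022, limma). The dimmer probe went from -0.62, -0.38 and -0.23 to -1.03, -0.82 and -0.97 (change -0.53, SE 0.14, adjusted p = 0.0271, limma). Neither probe's groups overlapped, and the direction of Psmd9 is therefore uncertain. With the mean of its probes in place of the brighter one, Psmd9 did not pass. Of 1493 genes with 2 tested probes, both passed in 265, and in 122 of these the directions were opposite. All proteasome genes except Psma8 and Psmd9 had a single probe. The direction stated for each of them rests on that probe and was not checked by another.

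Set side by side, the core had 0 genes higher and 2 lower of 15, and the cap had 5 higher and 6 lower of 19. These were 0% and 13.3% of the core and 26.3% and 31.6% of the cap, beside 14.6% and 29.2% of all genes. Without the assembly chaperones the cap had 4 higher and 5 lower of 16. At an unadjusted p below 0.05 the core had 0 higher and 5 lower, and the cap 6 higher and 7 lower, beside 19.6% higher and 35.8% lower among all genes. Of the core genes, Psma2 passed as higher under median centring, where the median change of all genes was 0.03. The median size of change, regardless of sign, was 0.22 in the core and 0.41 in the cap, and 0.46 over all genes. The median signed change was 0.00 in the core and -0.12 in the cap, and the core value was -0.07 without the dim Psma8. The core minus cap value of an array, each gene taken relative to its mean of 6 arrays, was -0.08, 0.02 and -0.01 in untreated and 0.05, -0.05 and 0.10 in exosome arrays. These groups overlapped, so no shift of the core against the cap as a whole was seen beyond the spread of the arrays. The difference in size of change between core and cap was not tested.

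**Figure D3:**
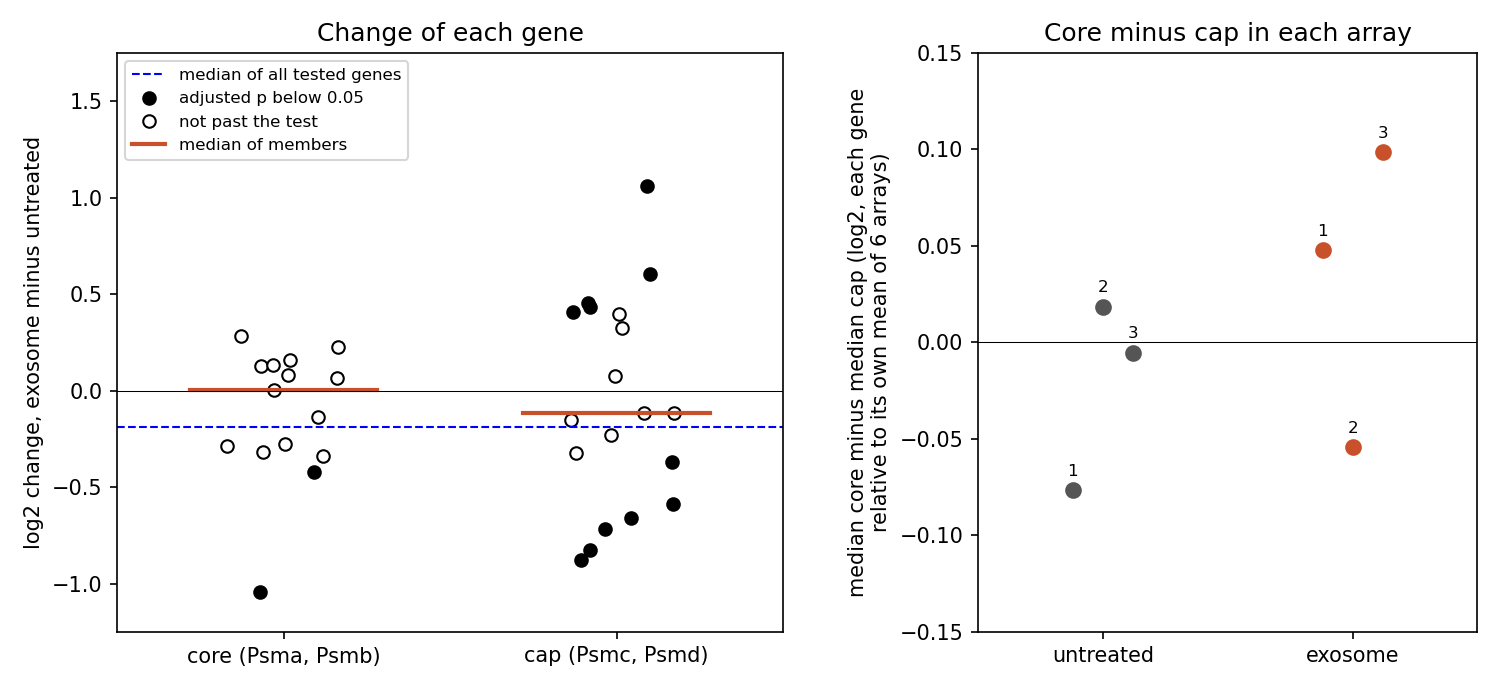
Left, the log2 change of each of 15 core and 19 cap genes, filled where adjusted p was below 0.05, with the median of each set (orange bar) and of all tested genes (dashed line, -0.19). Right, the median of core minus the median of cap genes in each array, with replicate numbers; the exosome values of 0.05, -0.05 and 0.10 overlap with the untreated values.

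The arrays of a group differed in a shared manner. Untreated array 1 held the lowest untreated value in 25 of the 34 genes, against 53.0% of all genes, and untreated array 3 held the highest in 25, against 45.6%. Exosome array 2 lay nearest to the untreated mean in 12 of the 13 genes that passed the test, and in 77.2% of all genes that passed. Exosome array 1 was nearest in 0 of the 13 and exosome array 3 in 1, Psmb3. Psma5, Psmb2, Psmd6 and Psmd12 were each spotted 10 times. Their median SD between spots of an array was 0.036 to 0.059, whereas their SD between untreated arrays was 0.13 to 0.21. Between exosome arrays their SD was 0.034 to 0.15. For Psmb2 it was 0.034, below the SD between single spots. It was not below the SE of the mean of 10 spots, 0.012 to 0.032 in the exosome arrays. The spread between untreated arrays was larger than the spread between spots in all 4 genes.

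**Figure D4:**
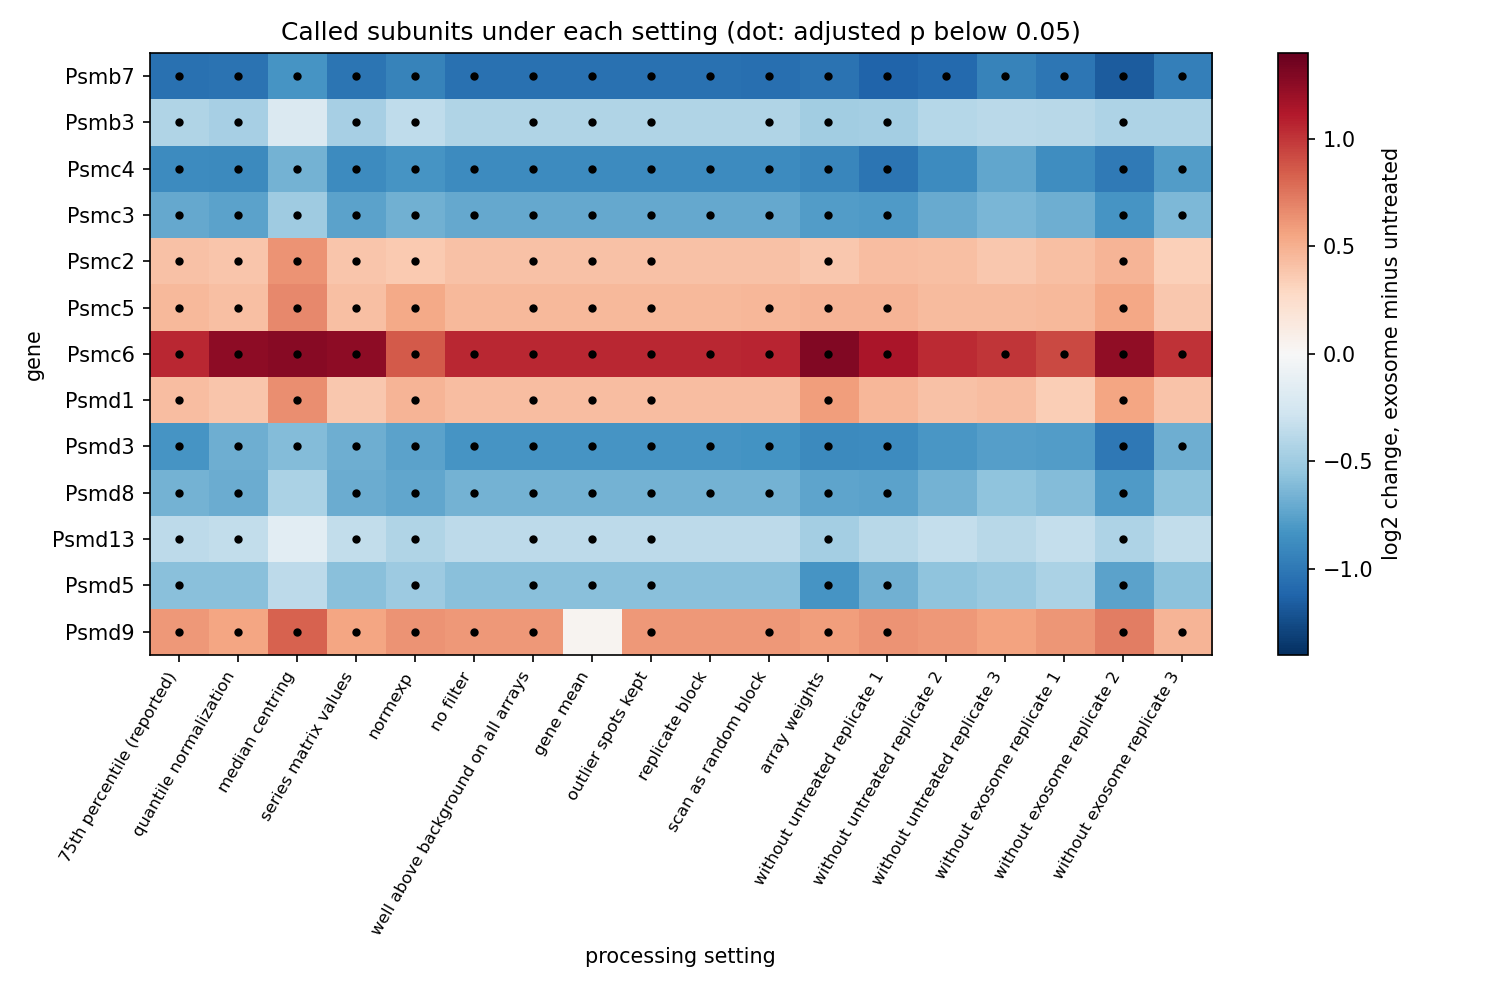
Log2 change of the 13 genes that passed the test (vertical axis) under the reported processing and 17 alternatives (horizontal axis), red for higher and blue for lower with exosomes; a dot marks an adjusted p below 0.05. Psmb7 has a dot in every column, and Psmd9 is near 0 where its probes were averaged.

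Of 44 further genes of the ubiquitin and proteasome system, 37 were tested, with 3 higher (8.11%) and 10 lower (27.0%), beside 14.6% and 29.2% of all genes. Among the immunoproteasome genes, whose products replace the catalytic subunits in immune cells and under interferon, Psmb9 fell from 2.26, 2.24 and 2.42 to 1.80, 1.97 and 1.89 (change -0.42, SE 0.12, adjusted p = 0.03, limma). Psmb8 read 1.26, 1.28 and 1.24 against 0.97, 1.22 and 0.995, without overlap and without passing (change -0.20, SE 0.12). Psmb10 did not pass either (change 0.27, SE 0.13). Of 10 macrophage markers, 4 were lower (C1qa, C1qc, Cd74 and Adgre1) and 0 higher, beside 29.2% and 14.6% of all genes. Under quantile normalization 2 were lower and 1, Ptprc, was higher, beside 16.1% and 20.2% of all genes. Their log2 summed level was 4.30 to 4.38 in untreated arrays and 3.01 to 4.23 in exosome arrays, the lowest being exosome array 3, where Cd68 read -3.45 against 3.15 and 3.35 in the other exosome arrays. Of 5 tested Leydig cell markers 1, Cyp11a1, was lower and 0 higher, and their log2 summed level was 6.24 to 6.41 in untreated and 6.22 to 6.46 in exosome arrays.

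Some markers of other cell types also differed between the groups. The counts below stand beside 29.2% lower and 14.6% higher among all genes. Of 5 peritubular myoid markers 2, Tagln and Des, were lower and 0 higher, and their log2 summed level was 5.17 to 5.32 in untreated and 4.49 to 4.86 in exosome arrays. Of 3 tested endothelial markers Pecam1 (change 1.02) and Kdr (0.67) were higher under both the reported scaling and quantile normalization. The third, Cdh5, was lower (-0.45) under the reported scaling only, and the summed level was -0.73 to -0.32 against 0.079 to 0.50. Of 5 tested Sertoli markers Clu was lower (-1.02) and 0 higher. The others did not pass, with changes of -1.26 for Cldn11, 0.27 for Inhbb, 0.49 for Fshr and 0.16 for Rhox5. The summed level was 4.23 to 4.68 against 3.57 to 3.85. It was mostly the signal of Clu, whose mean went from 4.23 to 3.21. Of 3 tested lymphocyte markers Cd3d and Cd8a were lower, though under quantile normalization 0 were lower and 1 was higher, and the summed level was -1.71 to -1.41 against -2.24 to -1.96. Amh and Gata1 (Sertoli), Cd3e (lymphocyte) and Tek (endothelial) were well above background on 0 arrays. The part of any of these markers in the results of Psmb9 and the other proteasome genes was not tested.

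Among activators and inhibitors of the core, Psme3, a nuclear activator subunit, was lower by the reported scaling (change -0.56, SE 0.12, adjusted p = 0.017, limma), but its change was -0.13 under quantile normalization (adjusted p = 0.542). Of the core assembly chaperones, Psmg2 fell (-0.64, SE 0.15), Psmg4 rose (0.55, SE 0.15), and Pomp had a change of 0.16. Among cap partners, the ubiquitin receptor Adrm1 fell from -0.28, -0.71 and -0.58 to -1.30, -1.11 and -1.43, while the deubiquitinase Usp14 rose from 0.10, 0.15 and 0.12 to 0.65, 0.54 and 0.56. Both genes separated the groups without overlap.

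Of the transcription factors, Nfe2l1 and Nfe2l2 had changes of -0.05 (SE 0.12) and -0.12 (SE 0.13) and did not pass. The small Maf genes Mafk (-1.02, SE 0.21) and Mafg (-0.73, SE 0.18) fell, and Mafg did not pass under quantile normalization (adjusted p = 0.066). Among shuttles and unfolding factors, which bring ubiquitinated proteins to the proteasome, Nploc4 (-0.65) and Vcp (-0.63) fell, and Faf2 rose (0.47). Of the ubiquitin genes, Ubb fell by 0.51 (SE 0.12, adjusted p = 0.02, limma), whereas the change of Rps27a was -0.05 and did not pass.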

How the data were processed

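RNA of 6 samples was hybridised to 1-colour Agilent rat arrays, 3 per group. Per the file headers and the submitters' processing notes, the deposited intensities were read with Agilent Feature Extraction 11.0.1.1, which corrected background and spatial trend within an array. The authors' deposited table of log2 values correlated at r of 0.996 or more with its own arrays, and its columns shared a median of 5.69. Its normalization is not given in the sources used here, and it served as an alternative. It called the same 12 proteasome genes as quantile normalization, so it largely repeated that alternative.

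Outlier spots were left out, spots of a probe were averaged as log2 processed intensity, and each array's 75th percentile was subtracted. Probes well above background on at least 3 of 6 arrays were tested (67.3%). Symbols came from RefSeq accessions looked up in a RefSeq gene table of assembly GRCr8. A gene was represented by its tested probe of highest mean signal. limma 3.58.1 in R 4.3.3 fitted all probes, with Benjamini-Hochberg adjustment over all of them. The procedure was tested on simulated data. Tables were made with pandas 2.3.3 and numpy 2.4.6 under Python 3.11.15, figures with matplotlib 3.10.9. The number of arrays limits the precision.

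Values in each array are given for members past the test, the 3 catalytic subunits, Psma8, members whose probes disagree, and the largest and smallest change of each subunit group. Of the other lists, members past the test are named, at most 4 per list. Genes named beyond this were chosen after their values were seen. The counts of the other lists include a few genes whose values are not reported here. The members and lists were chosen with earlier results of these data known. Alternatives were quantile normalization, median centring, the deposited log2 values, normexp with an offset of 50, 2 other filters on dim probes, the mean of a gene's probes, outlier spots kept, a replicate block, scan as a random block, array weights, a 2-fold minimum and each array left out. Normexp used spot medians and local background medians.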

Additional observations from a re-analysis of the deposited data

How the results depend on the processing

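Counts of the proteasome genes followed the scaling and the model, and the cause was not tested. Against 5 higher and 8 lower, median centring gave 7 higher and 4 lower, no filter 2 and 5, and scan as a random block 3 and 6. Array weights gave 9 and 15. Of all 10981 tested genes, 1598 were higher and 3209 lower by the reported fit. For these, median centring gave 2620 and 1858, normexp 1974 and 3994, and no filter 849 and 2231. Scan as a random block gave 1189 and 2710, and array weights 2937 and 5049. Of the 13 proteasome genes, 8 passed the test and all 13 kept their sign under the 5 scalings, and a 2-fold minimum left 2. Among these scalings, the deposited values gave the same proteasome calls as quantile normalization. Leaving out each array in turn gave 0 to 7 proteasome genes higher and 1 to 8 lower. For the other ubiquitin and proteasome genes, against 3 higher and 10 lower, median centring gave 7 and 3, normexp 5 higher, no filter 1 higher and array weights 7 and 16, with 0 to 3 higher and 1 to 10 lower when each array was left out. Untreated and exosome arrays of the same replicate number showed no shared deviation (correlations of deviations -0.09, -0.03 and -0.02). Whether the numbers mark paired samples cannot be told from this, and the labels do not say. With the replicate block 1 proteasome gene was higher and 5 lower, and 0 and 6 of the other genes. Of all tested genes 768 were then higher and 2410 lower. The median change of the core minus the median change of the cap was 0.12, a different measure from the core minus cap value of an array. It became -0.060 under normexp and 0.048 with array weights, and 0.0071 to 0.15 with each array left out. Signs were compared for the proteasome genes, the immunoproteasome genes and the other listed genes that passed the test. Among them, changes of opposite sign were all of genes that did not pass. Under median centring these were 0.083 for Psmb6, 0.10 for Psmd12, 0.10 for Psmd14, 0.064 for Psmd7 and 0.018 for Psmb8. With array weights they were -0.026 for Psma4 and -0.11 for Psma6, and under normexp -0.17 for Psma8. Nfe2l1 and Rps27a were not in this comparison, and their changes of -0.05 became 0.08 and 0.0023 under quantile normalization. With each array left out, Psma4 ranged from -0.035 to 0.14, Psma6 from -0.13 to 0.11, Psma8 from -0.14 to 0.42 and Psmd10 from -0.025 to 0.16. Over all 833 pairs of a compared gene and an alternative, 658 kept direction and call, 135 lost the call, 26 gained it and 14 changed sign. The median change of all genes was -0.19 by the 75th percentile, 0.01 under quantile normalization and 0.03 under median centring, and 66.8%, 44.4% and 41.5% of called genes were lower. The dim signal of Psma8 limits what can be said of it.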
